A study of Mus musculus with 14 samples.

Results

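Osteoblast lineage commitment is governed by a small group of DNA-binding proteins, and 9 of their genes were followed here: the Runt family genes Runx2, Runx1 and Runx3, the zinc finger gene Sp7, and the homeobox genes Dlx3, Dlx5, Dlx6, Msx1 and Msx2. The genes were chosen by name, and each matched 1 of the 30503 genes in the table of read counts. All 9 were among the 17358 genes that passed the filter on low counts and were tested.

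Runx2 is the master regulator of osteoblast differentiation, and mice without it make no bone. Sp7, also called osterix, acts downstream of Runx2 and is needed for preosteoblasts to become osteoblasts. Dlx and Msx proteins bind similar homeobox sites, respond to BMP signals and tune Runx2 and its target genes during skeletal and craniofacial development.

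Transcripts were counted in 14 cultured clones of tdTomato+ skeletal cells from mouse femoral bone marrow, each library made from 1 clone. The 5 Fgfr3-WT (P23) clones carried Fgfr3-creER and R26R(tdTomato/+) and were isolated at postnatal day 23. The 5 Fgfr3-p53 cKO (P28) clones, isolated at postnatal day 28, and the 4 Fgfr3-p53 cKO (P4M) clones, isolated at 4 months, carried Trp53fl/fl in addition. All mice received tamoxifen at postnatal day 21, which activates cre in cells that express the Fgfr3-creER transgene and turns on tdTomato in them and their descendants, so that Trp53 is deleted only in that lineage. The WT and P28 clones were at passage 8 and the P4M clones at passages 6 to 8. The labels do not say which clones came from the same mouse, and the p-values therefore measure the spread between these clones.

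Total counts per clone lay between 25688946 and 38958693 for WT, between 37606033 and 48648618 for P28, and between 43757832 and 52857424 for P4M. Trp53 read 49.9 to 68.2 CPM (counts scaled to the same effective library size in every clone) in the WT clones and 1.72 to 2.85 CPM in the 9 cKO clones. The 3 groups also differed in lineage markers. The summed level of 7 chondrocyte markers (Col2a1, Acan, Sox9, Sox5, Sox6, Col9a1 and Matn3) was 250.1 to 5794 TPM (transcript levels scaled to gene length and depth) in WT, 71.7 to 481 TPM in P28 and 9.5 to 18.6 TPM in P4M clones. Col2a1 had the highest mean counts of the 7 in each group (6955, 749.5 and 24.4 CPM). In P28 against WT, 5 of the 7 were called lower and Matn3 higher (log2 fold change 2.38, SE 0.80, edgeR adjusted p = 0.0304). The summed level of 5 osteoblast markers (Col1a1, Bglap, Ibsp, Alpl and Dmp1) was 2.93 to 399 TPM in WT, 4065 to 6903 TPM in P28 and 3699 to 16350 TPM in P4M clones, and the WT clones were therefore low in this sum. Col1a1 had by far the highest counts of the 5 in the cKO clones, with means of 17850 (P28) and 25160 CPM (P4M). In P28 against WT, Col1a1 and Alpl were called higher, whereas Bglap, Ibsp and Dmp1 were not (edgeR adjusted p = 0.114, 0.357 and 0.439). P28 clones 1 to 3 read 0.167 to 0.495 CPM for Bglap, below the 12.7 and 3.72 CPM of WT clones 4 and 5. Markers of other cells were also read. Marrow reticular and adipocyte markers summed to 13.1 to 234 TPM in WT, 308 to 440 TPM in P28 and 89.7 to 297 TPM in P4M clones, and skeletal stromal markers to 79.3 to 302, 408 to 959 and 128 to 770 TPM. The 4 endothelial markers summed to 3.26 TPM or less, with Cdh5 at 0 in every clone. The part of these differences in the results below was not tested. All WT libraries came from one library submission and all cKO libraries from another, so that genotype, submission and age at isolation cannot be told apart in a comparison with WT.

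The question was how the regulators of the osteoblast programme differed between clones with and without p53, and between cKO clones isolated early and late. Averaged over both cKO groups, 5 of the 9 genes were higher than in WT (edgeR quasi-likelihood test, Benjamini-Hochberg adjusted p under 0.05), and 6 had an unadjusted p under 0.05. The 5 called were Runx2, Runx3, Sp7, Dlx3 and Dlx5. Over all genes tested, 23.1% were called higher and 25.7% lower in this comparison. The median log2 fold change of the 9 genes was 1.53, against -0.05 over all genes. A higher or lower transcript level in such bulk samples cannot be told apart from more or fewer cells of a type within the clone.

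**Figure D1:**
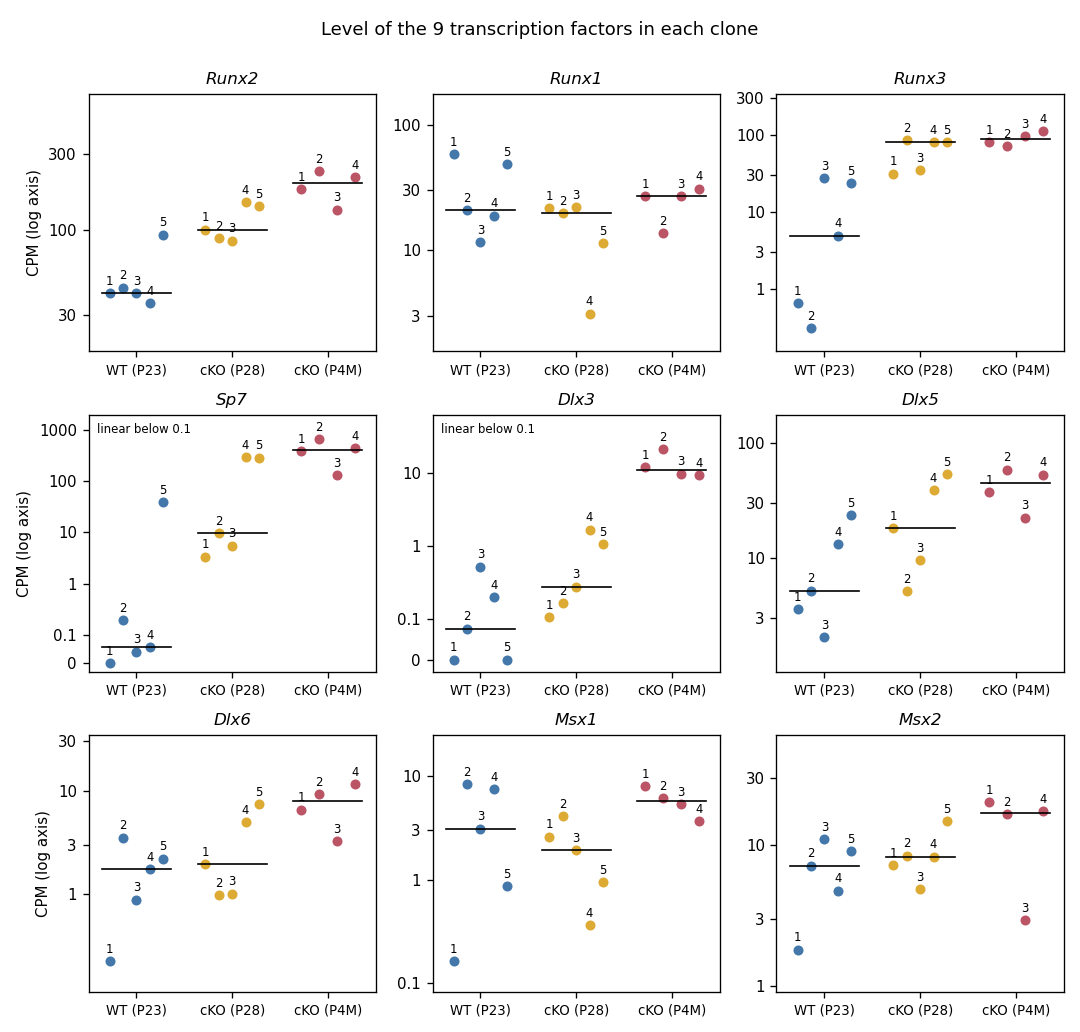
Level of each of the 9 genes in each clone, in CPM on a log axis (linear below 0.1 CPM for Sp7 and Dlx3, which have clones at 0). Points are clones, numbered by replicate, and black lines are group medians. The P4M clones sit above all WT clones for Runx2, Runx3, Sp7 and Dlx3, and WT clone 5 sits at 38.7 CPM for Sp7, apart from the other WT clones at 0.191 CPM or less.

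The Runt family proteins Runx1, Runx2 and Runx3 share a DNA-binding domain that recognises the letters TGTGGT, or ACCACA on the other strand. Runx1 is best known as a regulator of blood stem cells and is also expressed in skeletal progenitors, and Runx3 acts in T cells and, with Runx2, in chondrocyte maturation. RefSeq promoter windows of the GRCm38.p6 build, each running from 250 bases before to 50 bases after a transcript start, were found for 5 of the 9 genes, with 7 windows in all, and none was found for Sp7, Dlx3, Dlx5 and Dlx6. The upstream start of each Runt family gene is shown because all 3 windows hold the family's own recognition letters, printed in capitals. The Runx2 window is chr17:44814578-44814877 on the minus strand, the Runx1 window chr16:92826025-92826324 on the minus strand, and the Runx3 window chr4:135120395-135120694 on the plus strand.
Runx2: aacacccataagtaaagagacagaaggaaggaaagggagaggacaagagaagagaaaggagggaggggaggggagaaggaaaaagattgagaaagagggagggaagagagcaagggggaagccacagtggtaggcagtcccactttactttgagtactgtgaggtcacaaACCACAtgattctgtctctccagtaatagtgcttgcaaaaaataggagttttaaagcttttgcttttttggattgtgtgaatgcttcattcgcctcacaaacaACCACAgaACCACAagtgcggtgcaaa
Runx1: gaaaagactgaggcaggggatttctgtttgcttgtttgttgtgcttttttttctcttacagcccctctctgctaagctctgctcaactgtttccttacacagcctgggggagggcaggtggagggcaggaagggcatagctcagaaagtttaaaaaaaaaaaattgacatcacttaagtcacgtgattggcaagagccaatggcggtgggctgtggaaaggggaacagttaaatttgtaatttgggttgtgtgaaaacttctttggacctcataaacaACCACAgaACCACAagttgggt
Runx3: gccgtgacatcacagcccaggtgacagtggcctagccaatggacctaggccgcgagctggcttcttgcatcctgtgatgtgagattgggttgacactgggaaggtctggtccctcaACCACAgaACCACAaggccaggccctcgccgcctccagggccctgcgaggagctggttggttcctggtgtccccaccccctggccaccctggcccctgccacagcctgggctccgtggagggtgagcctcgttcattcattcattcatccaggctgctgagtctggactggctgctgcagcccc
The RUNX letters occurred 3 times in the Runx2 window and 2 times in each of the other two. In each of these windows 2 of the matches lay side by side within the same stretch of 18 bases, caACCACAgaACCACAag, which began at base 272 of the Runx2 window, base 277 of the Runx1 window and base 115 of the Runx3 window. The RUNX letters were found in 16.76% of 32851 mouse promoter windows. The 18 bases, which were read off these same Runt family windows, were found in 4, the last belonging to Gm16225, whose window overlaps that of Runx3 on the opposite strand. A longer stretch is found less often whatever its meaning, so that this number is no test. The second windows of Runx1 and Runx3 and the windows of Msx1 and Msx2 held no RUNX match. The GC box GGGCGG, which proteins of the Sp family bind, was found in the second Runx3 window 3 times and in the Msx1 and Msx2 windows 1 time each, and in 35.66% of all windows. The letters TAATTG, a form of the site that homeobox proteins bind, were found in 8.0% of all windows and in none of the 7. Other forms of this site were not searched. A match is a description of the letters, and binding was not measured.

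Runx2 (chromosome 17, 44495987 to 44814797, mm10) was higher in both cKO groups than in WT. It read 40.7, 44.1, 40.9, 35.3 and 94.0 CPM in the 5 WT clones, 101, 89.8, 86.3, 150.4 and 141 CPM in the P28 clones, and 180.1, 234.5, 135 and 214 CPM in the P4M clones. WT clone 5 stood apart from the other WT clones and overlapped the P28 range, while all 4 P4M clones lay above every WT clone. The rise on the log2 scale was 1.16 (SE 0.28, adjusted p = 0.00555) in P28 and 1.90 (SE 0.29, adjusted p = 0.000294) in P4M clones. Both calls held in all 14 fits that left out 1 clone. Between P4M and P28 the log2 difference was 0.75 (95% confidence interval 0.12 to 1.37, adjusted p = 0.126), and it passed the threshold when WT clone 5 was left out of the fit (adjusted p = 0.0395) or when only these groups were fitted (adjusted p = 0.0445).

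Runx3 (chromosome 4, 135120652 to 135177990) was the only one of the 9 genes for which every cKO clone lay above every WT clone. Its levels were 0.652, 0.306, 27.1, 4.87 and 23.4 CPM in the WT clones. They were 31.2, 85.3, 34.7, 80.1 and 80.5 CPM in P28 and 79.7, 70.4, 96.1 and 112 CPM in P4M clones. WT clones 1 and 2 were nearly without Runx3 transcripts, and WT clones 3 and 5 came close to P28 clones 1 and 3. Groups without overlap, with the cKO clones higher, were seen for 9.73% of all genes tested. On the log2 scale it was higher by 2.47 (SE 0.89, adjusted p = 0.0420) in P28 and 2.99 (SE 0.94, adjusted p = 0.0189) in P4M clones, and 0.52 between P4M and P28 (95% confidence interval -1.39 to 2.43, adjusted p = 0.757). The P28 call was lost in 9 of 14 fits that left out 1 clone, those without WT clones 1 or 4, P28 clones 2, 4 or 5, or any P4M clone, with adjusted p between 0.0507 and 0.0874. Without WT clone 3 the differences were 3.09 in P28 and 3.62 in P4M clones. The P4M call held in all of these fits, but was lost when only the P4M and WT clones were fitted (adjusted p = 0.0507).

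Runx1 (chromosome 16, 92601466 to 92826149) did not pass the test in any comparison. It read 58.8, 20.9, 11.6, 18.9 and 48.5 CPM in WT, 21.6, 19.7, 22.0, 3.10 and 11.5 CPM in P28, and 27.0, 13.7, 27.0 and 31.1 CPM in P4M clones. P28 clones 4 and 5 were the lowest of all, and the remaining cKO clones lay inside the WT range. The log2 difference from WT was -1.03 (95% confidence interval -2.15 to 0.10, adjusted p = 0.135) in P28 and -0.36 (95% confidence interval -1.55 to 0.82, adjusted p = 0.619) in P4M clones.

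Per length, the summed Runt family level was 16.2 to 57.3 TPM in WT, 63.5 to 104.2 TPM in P28 and 101.8 to 133.3 TPM in P4M clones, with no overlap between WT and either cKO group in TPM. In CPM, WT and P28 did overlap. WT clone 5 read 94.0, 23.4 and 48.5 CPM for Runx2, Runx3 and Runx1, which sum to more than the 101, 31.2 and 21.6 CPM of P28 clone 1. Runx2 held shares of 45.1% to 70.8% in WT, 40.2% to 61.2% in P28 and 50.2% to 71.1% in P4M. The Runx1 share was 10.8% to 54.2% in WT, 1.55% to 14.4% in P28 and 3.64% to 8.54% in P4M clones. The Runx3 share was 0.533% to 37.2%, 24.4% to 51.0% and 25.3% to 41.2% in the same order. Runx2 was the most abundant of the 3 genes in all clones except WT clone 1, where it was Runx1, and P28 clone 2, where it was Runx3. Because blood cells express Runx1 and Runx3, 7 blood cell markers were examined. Their summed level was 5.54 to 66.1 TPM in WT, 1.86 to 3.91 TPM in P28 and 2.21 to 9.24 TPM in P4M clones, nearly all of it from Cd68, which is also made outside blood cells. Ptprc, the gene of the pan-leukocyte antigen CD45, was at 0.07 TPM or less in every clone.

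**Figure D2:**
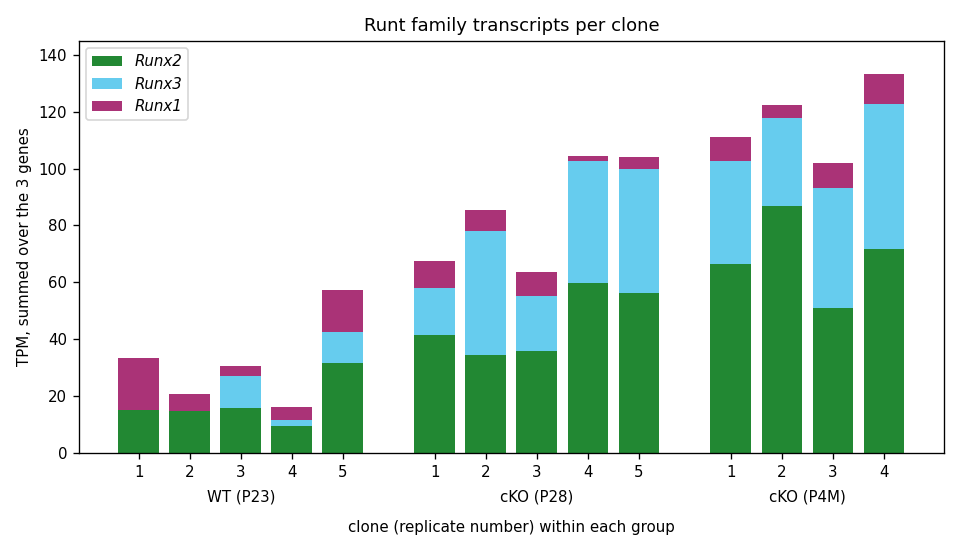
Runt family transcripts in each clone. Bars are TPM of Runx2, Runx3 and Runx1 stacked from 0, and bars are numbered by replicate within each group. The sum lies between 16.2 and 57.3 TPM in WT clones and at 63.5 TPM or more in every cKO clone.

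Sp7 (chromosome 15, 102356606 to 102367182) was nearly absent from WT clones 1 to 4 and had the highest median of the 9 genes, per length, in P4M clones (215 TPM). It had 0, 5, 1 and 2 counts in WT clones 1 to 4, that is 0, 0.191, 0.0405 and 0.0569 CPM, and 38.7 CPM in WT clone 5. A count of 0 in a WT library allows up to 3 counts, or 0.0854 to 0.121 CPM. P28 clones 1 to 3 read 3.38, 9.78 and 5.47 CPM, and P28 clones 4 and 5 read 293 and 289.5 CPM. The P4M clones read 381, 666, 132 and 441 CPM, all above WT clone 5. Thus the P28 group split into 3 clones below WT clone 5 and 2 clones within the P4M range.

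The log2 fold change of Sp7 was 3.95 (SE 1.86, adjusted p = 0.108) in P28, 5.70 (SE 2.04, adjusted p = 0.0355) in P4M and 4.83 (SE 1.88, adjusted p = 0.0470) over all cKO clones. These values depended on WT clone 5. Without it the adjusted p was 0.00139 in P28, 0.000616 in P4M and 0.000589 over all cKO clones, with log2 fold changes of 10.70, 12.45 and 11.58 that rest on the 0 to 5 counts of the other WT clones. With that clone in place, the P4M difference no longer passed in 7 of the fits that removed 1 other clone, those without WT clones 1 to 4 or P4M clones 1, 2 or 4, with adjusted p between 0.0503 and 0.0643. The call over all cKO clones was lost in 10 of these fits, those without WT clones 1 to 4, P28 clones 4 or 5, or any P4M clone, with adjusted p between 0.0527 and 0.0854. Without a filter on low counts, neither the P4M difference (adjusted p = 0.0672) nor that over all cKO clones (adjusted p = 0.0835) passed, and with limma on log2(TPM + 1) the P28 difference passed (adjusted p = 0.0431). The log2 difference between P4M and P28 was 1.75 (95% confidence interval -2.02 to 5.53, adjusted p = 0.567).

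Dlx3 encodes a homeobox protein of teeth, hair and bone, and its mutations cause tricho-dento-osseous syndrome. Dlx3 (chromosome 11, 95120119 to 95125296) was the only one of the 9 genes for which every P4M clone lay above every P28 and WT clone. WT clones read 0, 0.0765, 0.526, 0.199 and 0 CPM, and P28 clones 0.108, 0.167, 0.278, 1.69 and 1.08 CPM. The P4M clones read 12.3, 21.4, 9.95 and 9.49 CPM, so that the lowest P4M clone was above the highest clone of both other groups. In counts, WT clones had at most 13 and P28 clones at most 84, against 504 to 941 in P4M clones.

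The log2 difference of Dlx3 between P4M and P28 was 4.32 (SE 0.98, adjusted p = 0.0223), a fold of 19.9. It was 5.04 without P28 clone 4, the highest of the fits that left out 1 clone, and 2.61 with limma on log2(TPM + 1), where the difference of P4M from WT was 2.99. Without WT clone 3 that difference was 7.45. Dlx3 was the 1 gene of 9 called between the cKO groups, where 3.34% of all genes were called higher and 3.88% lower. Without scaling factors, 400 of 1205 called genes were higher in this comparison, against 580 of 1254 with them, and Dlx3 was called both ways. Against WT the log2 difference was 6.37 (SE 1.11, adjusted p = 0.000623) in P4M and 2.05 (SE 0.97, adjusted p = 0.109) in P28 clones. The call between the cKO groups was lost without P28 clones 1 or 3 or P4M clones 1 or 2, with adjusted p between 0.0519 and 0.0627. The P28 difference from WT passed the threshold without WT clone 3 (adjusted p = 0.0328) and with DESeq2 (adjusted p = 0.0460).

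**Figure D3:**
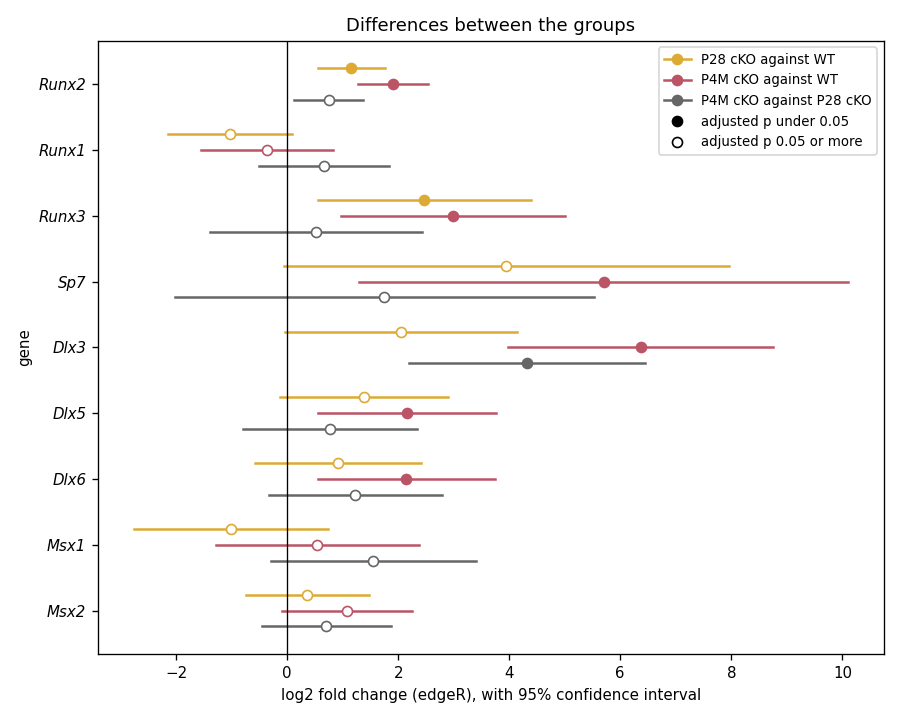
Log2 fold change of each gene with its 95% confidence interval from edgeR, for P28 against WT, P4M against WT and P4M against P28. Filled points have an adjusted p under 0.05. Against WT, 2 genes are filled in P28 and 6 in P4M clones, and only Dlx3, at 4.32, is filled between P4M and P28.

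Dlx5 and Dlx6 are neighbours on chromosome 6, with 9236 bases between them, and are transcribed towards each other. Both are needed for craniofacial and skeletal development, and Dlx5 is induced by BMP2 in osteoblasts. Dlx5 (6877805 to 6882085) read 3.58, 5.20, 2.06, 13.3 and 23.6 CPM in WT, 18.0, 5.16, 9.52, 38.5 and 53.6 CPM in P28, and 37.3, 58.4, 22.3 and 52.6 CPM in P4M clones. WT clones 4 and 5 and P28 clones 4 and 5 were the high ones of their groups, and P4M clone 3 lay below WT clone 5. Dlx6 (6863334 to 6868568) was lower than Dlx5 per length in every group median, and read 0.228, 3.52, 0.890, 1.76 and 2.22 CPM in WT, 1.96, 0.980, 1.01, 4.96 and 7.38 CPM in P28, and 6.55, 9.22, 3.28 and 11.5 CPM in P4M clones. P28 clones 4 and 5 were again high, and P4M clone 3 was again the lowest of its group.

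Both genes were higher in P4M than in WT clones. The log2 difference was 2.16 (SE 0.74, adjusted p = 0.0297) for Dlx5 and 2.15 (SE 0.74, adjusted p = 0.0301) for Dlx6. The Dlx5 call was lost without WT clones 1, 2 or 3 or P4M clones 2 or 4 (adjusted p 0.0530 to 0.0675), and the Dlx6 call without WT clones 3 or 4 or P4M clones 2 or 4 (adjusted p 0.0528 to 0.0777). In P28 clones the log2 differences from WT were 1.39 (95% confidence interval -0.12 to 2.90, adjusted p = 0.134) for Dlx5 and 0.92 (95% confidence interval -0.58 to 2.42, adjusted p = 0.317) for Dlx6, and without WT clone 5 the Dlx5 difference passed the threshold (adjusted p = 0.0365) and was 2.82 in P4M clones. Over all cKO clones Dlx5 was called (1.77, SE 0.66, adjusted p = 0.0392), but not in 9 of 14 fits that left out 1 clone, those without WT clones 1 to 4, P28 clones 4 or 5, or P4M clones 1, 2 or 4 (adjusted p 0.0513 to 0.0888). Dlx6 was not called (1.53, SE 0.65, adjusted p = 0.0665), but was called without WT clone 2 (adjusted p = 0.0400) and with DESeq2 (adjusted p = 0.0203).

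Msx1 and Msx2 are BMP-responsive homeobox repressors active in teeth and skull, and Msx2 keeps calvarial osteoprogenitors proliferating. Msx1 (chromosome 5, 37820485 to 37824583) read 0.163, 8.42, 3.11, 7.48 and 0.871 CPM in WT, 2.60, 4.11, 1.93, 0.363 and 0.948 CPM in P28, and 8.07, 6.19, 5.41 and 3.70 CPM in P4M clones. The WT clones spanned the range of the cKO clones, and P28 clones 4 and 5, high for Sp7 and Dlx3, were low here. Msx2 (chromosome 13, 53466884 to 53473074) read 1.82, 7.15, 11.0, 4.75 and 9.06 CPM in WT, 7.25, 8.44, 4.87, 8.28 and 14.7 CPM in P28, and 20.1, 16.5, 2.94 and 17.4 CPM in P4M clones. Of the P4M clones, 3 lay above all WT clones and clone 3 lay below 4 of them.

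Neither Msx gene passed the test in any of the 4 comparisons. For Msx1 the log2 difference from WT was -1.01 (95% confidence interval -2.77 to 0.74, adjusted p = 0.348) in P28 and 0.54 (95% confidence interval -1.29 to 2.37, adjusted p = 0.630) in P4M clones. For Msx2 it was 0.37 (95% confidence interval -0.74 to 1.47, adjusted p = 0.602) and 1.07 (95% confidence interval -0.10 to 2.24, adjusted p = 0.122). The Msx2 difference in P4M passed the threshold without P4M clone 3 (adjusted p = 0.0267).

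By group, 2 of the 9 genes (Runx2 and Runx3) were higher in P28 than in WT clones, where 19.2% of all genes were called higher and 19.7% lower. In P4M against WT, 6 of the 9 (Runx2, Runx3, Sp7, Dlx3, Dlx5 and Dlx6) were higher, where 22.3% of all genes were called higher and 23.6% lower. None of the 9 was lower in either by edgeR, at an unadjusted p under 0.05 as well, or by DESeq2. Both comparisons share the 5 WT clones. Groups did not overlap, with the cKO clones higher, for 1 gene of 9 in P28 (13.0% of all genes) and for 4 in P4M (17.8% of all genes), namely Runx2, Runx3, Sp7 and Dlx3. Between P4M and P28 this held for Dlx3 alone, against 9.07% of all genes. Asked for any difference among the 3 groups, the test called 3 of the 9 (Runx2, Runx3 and Dlx3), below the 50.6% of all genes that it called, and 6 had an unadjusted p under 0.05. DESeq2 called 6 of the 9 in this test, adding Sp7, Dlx5 and Dlx6, and 9746 of all 17358 genes.

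Per length, the order of the 9 genes differed between the groups. By median TPM, Runx2 came first in WT (15.0 TPM), followed by Dlx5 (5.99 TPM), Runx1 (5.92 TPM) and Msx2 (4.38 TPM), and Dlx3 and Sp7 came last at 0.04 and 0.03 TPM. In P28, Runx3 (42.7 TPM) and Runx2 (41.3 TPM) came first by median, although Runx2 was above Runx3 in every P28 clone but clone 2. In P4M it was Sp7 (215 TPM), followed by Runx2 (69.0 TPM), Dlx5 (55.8 TPM) and Runx3 (39.1 TPM). The ranges of neighbours in these orders overlapped, with 1 exception in P4M, where Runx3, at 30.9 TPM or more, lay above Dlx6, at 23.8 TPM or less.

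Within the groups, Runx2 and Sp7 levels ran together, but their order did not match in every clone. P28 clone 1 had more Runx2 than P28 clone 2 (101 against 89.8 CPM) but less Sp7 (3.38 against 9.78 CPM). After the mean of each group was taken off, the Pearson r of log2 CPM between Runx2 and Sp7 was 0.925 over the 14 clones, and Sp7 was the gene most like Runx2 among 9660 genes. For Dlx5, r was 0.771 with Sp7, 0.746 with Runx2 and 0.749 with Dlx6. Runx1 and Dlx3 ran opposite (r = -0.913), the lowest r among all pairs of the genes followed. Dlx3 had only 0 to 13 counts in the WT clones and 5 to 84 counts in the P28 clones. The r values of Dlx3, here and below, therefore rest in part on few reads. The genes most like Sp7 were Lifr (0.944), the receptor of leukaemia inhibitory factor, and Bnip2 (0.928), and Vav2 (0.915) and Fam98b (0.906) followed Sp7 for Runx2. Among the closest for the others were Map3k7 (0.946) and Cap1 (0.933) for Runx3, Tom1l1, Chd3 and Mrpl9 for Runx1 (0.877 to 0.916), Sfrp2, Slc37a2 and Mllt1 for Dlx5 (0.914 to 0.927) and Ccdc80, Csk and Hmgn1 for Dlx6 (0.912 to 0.926). Dda1, Arf1 and Sap18 were close to Dlx3 (0.908 to 0.947), Hsd17b10, Tmem184c and Fkbp11 to Msx1 (0.925 to 0.937), and Sfxn1 (0.903) and Cox15 (0.894) to Msx2. These values describe 14 libraries that share their depth and composition across genes, and WT clone 5 and P28 clones 4 and 5 are the clones farthest from their group means for Sp7.

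The 12 genes known as targets of Runx2 or Sp7 were read in the same clones. In all cKO against WT, 5 of the 12 were higher and 2 lower, against 23.1% and 25.7% of all genes, with a median log2 fold change of 3.48 against -0.05 over all genes. Col1a1, the main collagen of bone, rose by 6.47 on the log2 scale (SE 1.58, adjusted p = 0.00452), Dmp1 by 3.98 (SE 1.01, adjusted p = 0.00549). Spp1 (osteopontin) fell by 1.84 on the log2 scale (SE 0.29, adjusted p = 0.000227) and Col10a1, the collagen of hypertrophic cartilage and a Runx2 target there, fell by 3.55 (SE 0.77, adjusted p = 0.00202). Between P4M and P28, 3 of the 12 (Dmp1, Phex and Ifitm5, genes of osteocytes and mineralizing osteoblasts) were higher and Col10a1 was lower, against 3.34% and 3.88% of all genes. P4M clone 3 did not share these rises. It read 1.72 CPM for Dmp1 and 1.19 CPM for Phex, both inside the P28 ranges of 0.478 to 3.76 and 0.717 to 2.58 CPM, and 0.0988 CPM for Ifitm5, below every P28 clone. The other P4M clones read 88.1 to 175.0 CPM for Dmp1, 14.1 to 45.7 CPM for Phex and 0.733 to 7.17 CPM for Ifitm5.

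Individual targets followed Sp7 from clone to clone to different degrees. Ibsp, the gene of bone sialoprotein, was at 0 CPM in WT clones 1 to 4 and at 92.9 CPM in WT clone 5. It read 1.53, 0.550 and 0.795 CPM in P28 clones 1 to 3, 445 and 147 CPM in P28 clones 4 and 5, and 733, 1124, 49.8 and 282 CPM in P4M clones. The clones with Ibsp at 49.8 CPM or more were also those with Sp7 at 38.7 CPM or more, and r with Sp7 within groups was 0.960. For Alpl, tissue-nonspecific alkaline phosphatase, r with Sp7 was 0.847, and P28 clones 4 and 5 read 1858 and 916 CPM, against 10.5 to 57.9 CPM in P28 clones 1 to 3. Ibsp and Alpl were singled out after their values were seen. Col1a1 did not separate the P28 clones in this way, with 14680 to 22010 CPM in all 5 (r = 0.521), and Spp1, Phex and Dmp1 had r of 0.011, 0.032 and 0.301 with Sp7.

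**Figure D4:**
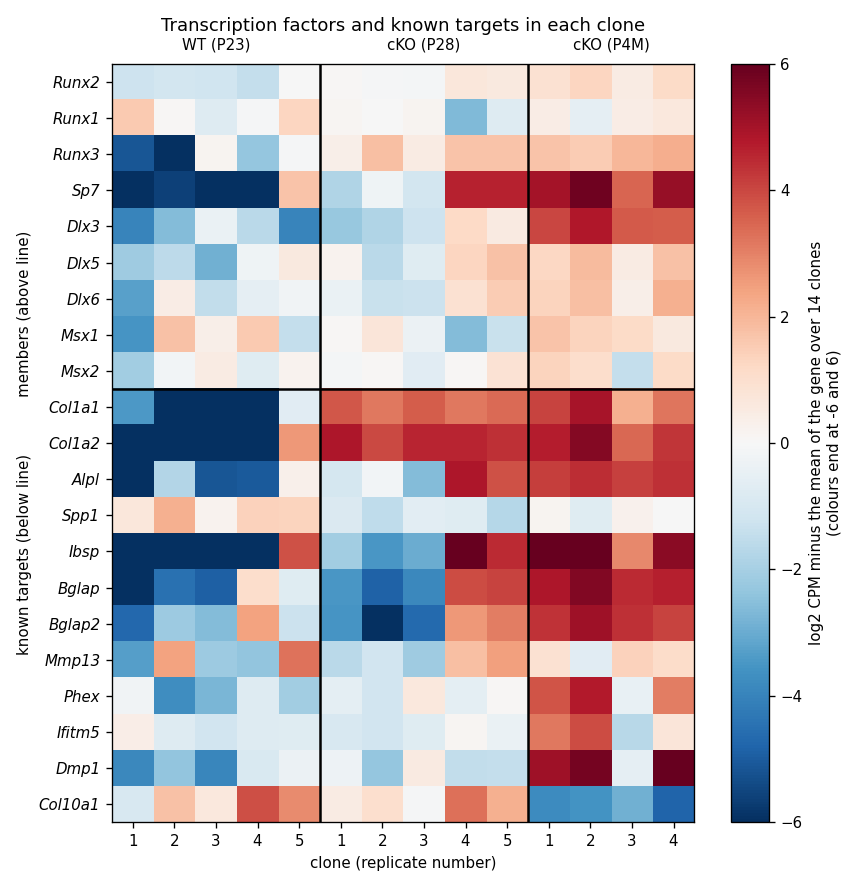
The 9 transcription factors (above the line) and 12 known targets (below) in each clone, as log2 CPM minus the mean of the gene over the 14 clones, with colours ending at -6 and 6. WT clone 5 and P28 clones 4 and 5 are high for Sp7 and Ibsp within their groups, and Dmp1 is high in P4M clones 1, 2 and 4 only.

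Among the Runx partner gene and 7 repressors of Runx2, 3 were higher and 1 lower in all cKO against WT, where 23.1% of all genes were called higher and 25.7% lower. Cbfb, the partner that stabilises Runt proteins on DNA, was higher (log2 fold change 1.15, SE 0.21, adjusted p = 0.000590), as were Hdac4 (1.23, SE 0.17, adjusted p = 9e-05) and Twist1 (0.62, SE 0.20, adjusted p = 0.0192), both known to restrain Runx2. The list therefore moved in both directions, with a median of 0.15. Of the other Dlx and Msx genes, Dlx1 (1.49, SE 0.43, adjusted p = 0.0115) and Dlx2 (1.88, SE 0.67, adjusted p = 0.0329) were higher, Dlx4 was not called (-0.63, SE 0.92, adjusted p = 0.596) and Msx3 had too few counts to be tested.

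Of 21 other regulators of osteoblasts, 10 were higher in all cKO against WT and the others did not pass the test, with a median log2 fold change of 0.92, where 23.1% of all genes were called higher. The lowest adjusted p values were those of Smad1 (1.06, SE 0.13, adjusted p = 4.7e-05) and Smad5 (0.92, SE 0.16, adjusted p = 0.000583), which carry BMP signals, Tcf7 (5.05, SE 0.81, adjusted p = 0.000273), which carries Wnt signals, and Prrx2 (1.83, SE 0.30, adjusted p = 0.000291), a homeobox factor of limb mesenchyme. Alx4 had a larger log2 fold change than these (6.57, SE 1.86, adjusted p = 0.0105), and that of Creb3l1 (2.71, SE 0.53, adjusted p = 0.00104) was larger than all of these but that of Tcf7. Alx4 and Creb3l1 were named after their values were seen. The value of Alx4 rests on a WT mean of 0.0640 CPM, less than 3 counts give in any WT library (0.0854 CPM or more). Its mean was 15.1 CPM (SD 21.4) in P28 and 2.99 CPM (SD 3.06) in P4M clones. Between P4M and P28, 5 of the 21 were higher, against 3.34% of all genes.

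The libraries did not keep strand, so that reads from overlapping genes could not be assigned by strand. Runx2 shares 519 of 8837 exon bases (5.87%) with its antisense gene Runx2os1, which had at most 1.11 CPM in any clone, and Supt3, which spans Runx2 on the other strand, shares no exon bases with it and read 6.31 to 18.6 CPM, with a log2 difference of 0.08 over all cKO clones (adjusted p = 0.794). Dlx6 shares 104 exon bases with Dlx6os2, which had at most 0.182 CPM. Its antisense gene Dlx6os1, which shares no exon bases with it, was higher in all cKO than in WT clones (1.58, SE 0.62, adjusted p = 0.0477). Of the 50-base stretches of their transcripts, 6.09% for Dlx6 (shared with 596 other genes), 5.66% for Runx2 (9 genes), 1.13% for Runx3 (573 genes), 0.471% for Runx1, 0.465% for Msx2 and 0.179% for Sp7 also occurred in other genes, and reads from them may be assigned with less certainty. Dlx3, Dlx5 and Msx1 had no 50-base stretch in common with transcripts of any other gene.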

How the data were processed

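Bulk RNA-seq was performed by the authors with the SMART-Seq v4 kit, which does not keep strand, and 50-cycle single-end reads. Per the methods, reads were aligned to mm10 with TopHat and Bowtie2, non-ambiguous reads were counted with HTSeq, and DESeq2 was used; their versions are not given in the sources used here. The deposited counts are whole numbers per gene without normalization. The TPM values were normalized per length and depth by the authors, and the program is not given in the sources used here. Tables of FPKM, expected counts and DESeq2-normalized values were not used.

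Counts of 14 clones were tested with edgeR 4.0.16 (R 4.3.3). Genes were kept by filterByExpr (minimum count 10, 3 groups), which left 17358 of 30503. Libraries were scaled by TMM and a robust quasi-likelihood model was fitted to all clones with group as the only term. P values were adjusted by Benjamini-Hochberg over all genes tested and called at 0.05. CPM are counts scaled to the effective library size, log2 CPM used a prior count of 2, and SD, SE and intervals are over clones. All 9 genes passed the filter, so that the exact permutation test planned for a gene below it was not needed. Limits from a count of 0 (3 counts) cover counting error only, since reads amplified by PCR carry no molecular identifiers. The fit was tested on simulated data.

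The genes and lists were chosen with earlier results of these data known. The rule named all 9 genes, up to 4 genes per list with the lowest adjusted p in all cKO against WT and then in P4M against P28, and the 3 genes most like each of the 9 among those whose mean log2 CPM was 3 or higher. A few genes that this rule names are not reported here. Alternatives were DESeq2 1.42.0, RLE scaling, no scaling, no filter, at least 10 counts in every clone, limma 3.58.1 on log2(TPM + 1), only the groups compared, and leaving out each clone. Overlaps and 50-base stretches used GENCODE M21 (mm10), and promoter windows RefSeq (GRCm38.p6). The 26 pairs of clones within a group differed beyond sampling noise (chi-square per degree of freedom 68.1 or more). Plots were drawn with matplotlib 3.10.9 in Python 3.11.15.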

Additional observations from a re-analysis of the deposited data

Results flagged for a closer look

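In 27 groups of values (9 genes in 3 groups), the highest or lowest clone was compared with the others by Dixon's criterion. Chance passes it in about 5% of groups of normally distributed values. The values here were CPM without a log transform, for which the rate was not tested. The criterion was passed in 2 groups, a number that such a rate can give by chance among independent groups. Both were passed by Fgfr3-WT clone 5, in 2 genes that ran together across clones (r = 0.925), so they are not independent. The gap over the range was 0.851 for Runx2 and 0.995 for Sp7, against a critical value of 0.71. Runx2 read 94.0 CPM in Fgfr3-WT clone 5, apart from 35.3 to 44.1 CPM in the other WT clones. Sp7 read 38.7 CPM in the same clone, apart from 0 to 0.191 CPM in the others.

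The difference of Dlx3 from WT was larger in P4M than in P28 clones. The difference of these effects, which is the P4M against P28 contrast, was 4.32 on the log2 scale (SE 0.98, edgeR adjusted p = 0.0223), and all 4 P4M clones were above all 5 P28 clones.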

How the results depend on the processing

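For the 9 genes in 4 comparisons, 726 log2 fold changes were recomputed under the alternatives. Of these, 657 kept their direction and side of the threshold, 54 lost and 11 gained the call, and 4 changed sign. The sign changes were of uncalled values: Runx1 in P4M against WT was 0.011 with limma on TPM, and Msx1 in all cKO against WT was 0.29 with limma on TPM, 0.22 without Fgfr3-WT clone 2 and 0.12 without Fgfr3-WT clone 4, with a range of -0.57 to 0.22 when 1 clone was left out.

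The number of the 9 genes called in all cKO against WT fell from 5 to 3 without a filter and to 2 with at least 10 counts in every clone, which only 4 of the 9 genes meet. In P28 against WT it fell from 2 to 1 without a filter, with at least 10 counts in every clone, and with only the groups compared, and rose to 3 with DESeq2 (Dlx3 added) and with limma on TPM (Sp7 added). In P4M against WT it fell from 6 to 5 without a filter (Sp7 lost) and with only the groups compared (Runx3 lost), and to 2 with at least 10 counts in every clone. In P4M against P28 it went from 1 to 0 with at least 10 counts in every clone, and to 2 with only the groups compared. For any difference among the 3 groups it went from 3 to 6 with DESeq2, to 6 with limma on TPM, and to 1 with at least 10 counts in every clone. Leaving out 1 clone gave 3 to 5, 1 to 4, 3 to 7, 0 to 2 and 2 to 5 calls in the same order. The causes were not tested, except that the stricter filter tests fewer genes.

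Among all alternatives, limma on TPM alone moved the median over all genes by more than 0.1, to 0.13 in all cKO against WT, 0.20 in P28 against WT, 0.05 in P4M against WT and -0.14 in P4M against P28. It called 5266 of 8184 genes higher in all cKO against WT (4014 of 8467 by edgeR), 5141 of 7079 in P28 against WT (3336 of 6750) and 376 of 1570 in P4M against P28 (580 of 1254). No paired analysis was possible because clone numbers run within a group and pair no clones. In WT, most clones had fewer than 10 counts for Dlx3 and for Sp7, so that their WT levels rest on few reads in those clones.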
